A study of Homo sapiens with 11 samples.

Results

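This report describes 150 protein-coding genes whose transcripts were low after 6 h of hypoxia and higher both before it and after 24 h, in RWPE1 cells. They were taken from 11557 protein-coding genes with a mean of 50 or more counts over 11 libraries, out of 60676 genes counted. For each of the 11557 genes the mean log2 of counts per 1000000 (CPM) at 6 h was subtracted from the smaller of the means at 0 h and 24 h, and the 150 genes with the highest difference, called the dip here, were kept. They are 1.3% of the genes available. The levels at 0 h, 6 h and 24 h therefore chose the genes, and are given as a description without a test. The 12 h levels did not enter this difference, and the 12 h libraries took part only through the mean count and the scaling. Without 12 h replicate 2, 144 of the 150 genes were chosen again.

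RWPE1 is a line of immortalized prostate epithelial cells, and every library came from this single line. Total RNA longer than 200 bases was sequenced from untreated normoxic cells (0 h, n = 3) and from cells held in 1% oxygen for 6 h (n = 3), 12 h (n = 3) and 24 h (n = 2). All cells grew in keratinocyte serum-free medium with bovine pituitary extract and EGF, but the medium of the hypoxic cells also received 10 mM HEPES buffer, so oxygen and buffer cannot be told apart in a comparison with 0 h. The third library at 24 h was not analysed here, and because no source ties the replicates to separate cultures, p-values measure only the spread between these samples.

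The libraries held 27496009 to 49488345 counts. The TMM factors, which rescale each library to its bulk of genes, lay between 1.29 and 1.32 at 0 h, between 1.03 and 1.07 at 6 h and between 0.91 and 0.993 at 12 h, and were 0.851 and 0.539 in the 24 h pair. Mitochondrially encoded genes took 10.2% to 10.3% of counts at 0 h, but only 4.3% to 5.27% at 6 h and 4.78% to 6.78% at 12 h, and 1.74% and 0.369% in the 24 h pair. The 24 h libraries thus stood apart from the others and from each other. All 15 basal epithelial markers were measured, with a summed level of 14760 to 18160 CPM at 0 h. Their sum was 23420 to 30340 CPM at 6 h, between 35360 and 38990 CPM at 12 h, and 35430 and 66430 CPM in the 24 h pair. KRT17 alone ranged from 3937 to 35660 CPM. By the test described below, 8 of the 15 were called higher and 4 lower at 6 h than at 0 h (25.1% and 27.7% of all tested genes). The 15 luminal prostate markers summed to 661.5 to 772.9 CPM at 0 h and to 1567 and 2808 in the 24 h pair. The 12 fibroblast markers summed to 60.91 to 74.67 CPM at 0 h and to 166.5 and 196.2 in that pair. The 12 leukocyte markers summed to 7.191 to 29.2 CPM over all libraries, with 3 at 0 throughout, and the 10 endothelial markers to 0.6658 to 6.115. No marker of any cell type was among the 150 genes, and the part of these shifts in the results was not tested. In bulk RNA, fewer cells of a type and less RNA per cell cannot be told apart.

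When cells are starved of amino acids, are short of oxygen or accumulate unfolded protein in the endoplasmic reticulum, kinases phosphorylate the translation factor eIF2. Most protein synthesis then slows while the transcription factor ATF4 is made in larger amounts, and ATF4 in turn activates genes such as DDIT3, ATF3 and TRIB3. Its target PPP1R15A brings a phosphatase to eIF2 and so closes a feedback loop. Separately, cells that pause division lower the genes of DNA replication and mitosis.

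The 150 genes together took 0.388% to 0.404% of all counts at 0 h and 0.093% to 0.105% at 6 h. Their share lay between 0.14% and 0.173% at 12 h and was 0.215% and 0.161% in the 24 h pair. Their median log2 CPM relative to each gene's own 0 h mean was -1.75, -1.78 and -1.56 in the 6 h libraries. It was -0.97, -0.78 and -0.75 at 12 h, and -0.45 and -0.04 at 24 h. By these medians the 6 h libraries were the lowest of the course and the 12 h libraries lay in between. The second 24 h library was near the starting level by this scaled measure only. Its share of counts, 0.161%, lay within the 12 h range and below that of the first 24 h library. Over the 11557 genes the median log2 CPM relative to 0 h stayed between -0.04 and 0.06 in every library, where TMM scaling holds it. With library size alone, group means gave these genes medians of -0.277 at 6 h, -0.425 at 12 h and -0.967 at 24 h against 0 h. The 150 genes then had -1.954, -1.281 and -1.164.

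**Figure D1:**
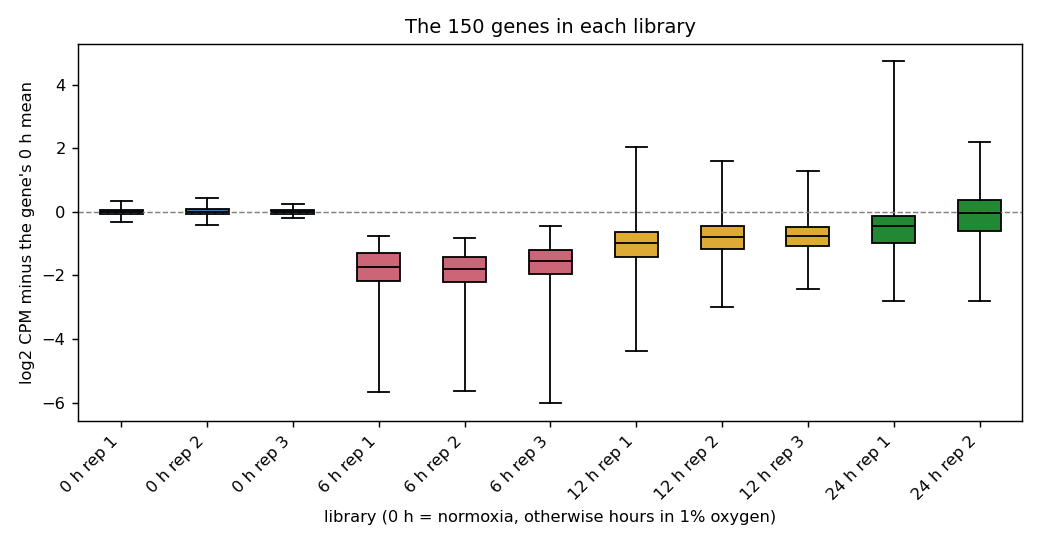
Levels of the 150 genes in each of the 11 libraries, as log2 CPM minus the gene's own mean at 0 h. Boxes span the middle of the genes, lines inside mark the median and whiskers reach the lowest and highest gene. The medians are -1.75, -1.78 and -1.56 at 6 h, -0.97 to -0.75 at 12 h, and -0.45 and -0.04 at 24 h.

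The dip ran from 3.08 for DDIT3 to 1.06 for CBLC on the log2 scale. The last genes inside were FANK1 (1.0569), CUTC (1.0563) and CBLC (1.056), and the first outside were TMEM101 (1.0538), DAPK2 (1.0524) and TMEM53 (1.0507), so the end of the set is a cut through a continuous range. In edgeR's fit the median difference was -1.64 between 6 h and 0 h, 0.32 times the starting level. Between 24 h and 6 h it was 1.35, 2.55 times. At 6 h 149 of the 150 genes were called lower than at 0 h, where 27.7% of all 19981 tested genes were. At 24 h 147 were called higher than at 6 h, against 22.1% of all tested genes, and 0 were called lower, against 20.3%. Both counts are fixed by the choice of the genes and nothing is read from them.

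Some entries stand for fewer signals, since histone genes of the cluster on chromosome 1 share their sequence. H3C14 and H3C15 had identical counts in 11 of 11 libraries, and H4C14 and H4C15 differed by at most 9 counts in any. A further entry, ENSG00000284691, has no symbol in the annotation.

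At 12 h, whose levels did not enter the difference that ranked the genes, they lay partway back. The 12 h mean was between the 6 h mean and the smaller of the 0 h and 24 h means in 134 of 150 genes, above that smaller mean in 15 and below the 6 h mean in 1, TRIB3. On the log2 scale a median of 60.6% of the dip had been regained by 12 h (interquartile range 46.1% to 78.9%), and 100 genes had regained more than 50%. In 137 genes the means stepped up each time from 6 h to 12 h to 24 h. The dip in these percentages is the difference that chose the genes, so low chance values at 6 h enter it. The size of the later step depended on the scaling. As means of log2 CPM, the set's median above 6 h was 0.803 at 12 h and 1.314 at 24 h with TMM. With library size alone it was 0.657 and 0.689, against -0.124 and -0.61 over all tested genes. KCNQ5, RHOU and C14orf132, the last 2 picked out after their values were seen, were higher at 12 h than at both 0 h and 24 h.

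A gene was called where the quasi-likelihood test of edgeR, adjusted by the Benjamini-Hochberg method across the whole table, gave an adjusted p under 0.05. By this test 60 of the 150 genes (40%) were higher at 12 h than at 6 h and 0 were lower. Over all tested genes 1.88% were called higher and 3.07% lower. limma-voom called 56 and DESeq2 81, also with 0 lower by either tool, and edgeR found 0 lower at an unadjusted p under 0.05 as well. The median difference was 0.84 (1.79-fold), against 0.0027 over all tested genes. All 3 libraries at 12 h lay above all 3 at 6 h in 115 genes (76.7%), where 15.9% of all tested genes did so. The 6 h libraries helped choose the genes, so a low chance value at 6 h enters this comparison as well. The count of calls moved with single libraries. Leaving out 12 h replicate 3 gave 13 and leaving out 12 h replicate 2 gave 21. Leaving out 6 h replicate 2 gave 18 and leaving out 6 h replicate 1 gave 31. Omitting the 0 h libraries in turn gave 36, 38 and 36, and omitting either library at 24 h gave 107 (replicate 1) or 108 (replicate 2). With library size in place of TMM it was 31.

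Against 0 h, 103 of the 150 genes (68.7%) were still called lower at 12 h by the same test, where 27.1% of all tested genes were, with a median difference of -0.81 (0.571 times). FBXO32, KCNQ5 and PTGS2 were called higher, 3 genes against 24.2% of all tested genes, and this count was 1 to 4 under the alternatives.

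The stress response held the gene with the deepest dip, DDIT3, and further members down to NUPR1 at rank 108. Of 28 available genes in a list of endoplasmic reticulum stress and the unfolded protein response, 5 were among the 150: DDIT3, PPP1R15A, ATF3, EDEM2 and TRIB3. Of 31 in a list of the ATF4 response, 5 were, namely DDIT3, ATF3, TRIB3, GDF15 and NUPR1. These are 17.9% and 16.1% of the lists, against 1.3% of all genes available, with 3 genes in common. The lists were chosen with earlier results of these data known, so these shares and those of the later lists are descriptive.

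DDIT3 (ENSG00000175197), which encodes the transcription factor CHOP and promotes cell death under prolonged stress, had the deepest dip of all. It lies on chromosome 12 (GRCh38, chr12:57516588-57521737). DDIT3 measured 81.4, 115 and 89.1 CPM at 0 h and 1.78, 1.82 and 1.38 CPM at 6 h. At 12 h it measured 4.43, 11.7 and 18.5 CPM, and at 24 h 15.2 and 13.5 CPM. No group overlapped the 6 h libraries, and every hypoxic library stayed well under every library at 0 h. The rise from 6 h to 12 h was 2.82 on the log2 scale (SE 0.40, n = 3 and 3, edgeR quasi-likelihood test, Benjamini-Hochberg adjusted p = 0.00554). At 24 h the difference from 0 h was still -2.73 (SE 0.43), so the return covered only the lower part of the range. Of its exonic length, 31.6% is overlapped by a gene on the opposite strand, and the strand setting of the counting is not stated.

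PPP1R15A (GADD34), the phosphatase subunit that reverses eIF2 phosphorylation, came nearest to its starting level within this group at 12 h. It measured 95.8, 103 and 97.3 CPM at 0 h, 20.1, 18.7 and 27.9 at 6 h, and 83.7, 74.6 and 84.7 at 12 h. The 24 h libraries differed, with 167 and 62.0 CPM, above and below the 0 h libraries. The rise from 6 h to 12 h was 1.86 (SE 0.28, edgeR quasi-likelihood test, Benjamini-Hochberg adjusted p = 0.00616). This call and that of DDIT3 held under each of 18 alternatives, each left-out library included.

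ATF3 and TRIB3 behaved otherwise at 12 h. ATF3, a stress-induced transcription factor of the ATF/CREB family, measured 13.5, 17.0 and 14.7 CPM at 0 h, 3.25, 3.63 and 3.66 at 6 h, 4.70, 3.11 and 3.29 at 12 h, and 16.7 and 6.00 at 24 h. TRIB3, a pseudokinase that is induced with DDIT3 and restrains AKT, measured 370, 406 and 390 CPM at 0 h, 99.7, 134 and 119 at 6 h, 124, 103 and 122 at 12 h, and 267 and 295 at 24 h. For both genes the 6 h and 12 h libraries overlapped. The differences between 12 h and 6 h were 0.07 (SE 0.31) for ATF3 and -0.02 (SE 0.15) for TRIB3, and neither passed the test. ATF3 would not have been chosen without 24 h replicate 1.

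GDF15, a secreted stress cytokine, measured 80.2, 96.5 and 83.3 CPM at 0 h, 4.37, 6.94 and 19.0 at 6 h, 19.1, 14 and 17.0 at 12 h, and 24.0 and 26.3 at 24 h. The 6 h replicate 3 lay within the 12 h range. Its difference between 12 h and 6 h of 0.71 (SE 0.38) did not pass the test, but did so when 6 h replicate 3 was left out. Like DDIT3 it ended below its start, with a difference of -1.78 (SE 0.45).

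NUPR1, a small chromatin-associated stress protein, measured 92.2, 98.1 and 96.9 CPM at 0 h, 37.6, 44.1 and 48.6 at 6 h, 63.0, 57.0 and 68.9 at 12 h, and 109 and 105 at 24 h. EDEM2, which starts the trimming of mannose from misfolded glycoproteins so that they can be degraded, measured 26.3, 29.0 and 25.6 CPM at 0 h, 8.92, 9.37 and 12.4 at 6 h, 18.6, 15.7 and 15.7 at 12 h, and 24.8 and 29.8 at 24 h. Both genes stepped up without overlap between 6 h and 12 h, and both 24 h libraries were above the 0 h range for NUPR1 and around it for EDEM2. From 6 h to 12 h NUPR1 differed by 0.54 (SE 0.13) and EDEM2 by 0.70 (SE 0.16), and the edgeR quasi-likelihood test gave Benjamini-Hochberg adjusted p = 0.0391 and 0.0308. The calls were lost in 11 and 10 of 18 alternatives, among them leaving out any single 0 h or 12 h library or 6 h replicate 1 or 2.

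IFRD1, a transcriptional co-regulator first found among interferon-related genes, is in neither list but ranked 4 by its dip. It would not have been chosen without 24 h replicate 1. It measured 56.8, 62.1 and 57.1 CPM at 0 h, 12.8, 11.7 and 10.1 at 6 h, 23.7, 26.1 and 18.5 at 12 h, and 101 and 26.3 at 24 h. The 24 h pair straddled the 0 h libraries as for PPP1R15A. The difference of 0.98 (SE 0.35) between 12 h and 6 h did not pass the test, but did without either 24 h library. A gene on the same strand overlaps 24.0% of its exonic length.

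The counts over both whole lists, members included, were as follows. Of the 29 tested genes of the endoplasmic reticulum list, 16 were called lower and 2 higher at 6 h against 0 h, where 27.7% and 25.1% of all tested genes were. At 24 h against 0 h 13 were called lower and 2 higher, where 31.3% and 29.9% of all tested genes were. At 24 h against 6 h 7 were called higher and 4 lower, where 22.1% and 20.3% were. Between 12 h and 6 h, 3 were called higher and 0 lower (0 lower also at an unadjusted p under 0.05 in edgeR, in limma-voom and in DESeq2), and the list's median difference was 0.02. Of the 31 tested genes of the ATF4 list, 17 were called lower and 4 higher at 6 h, and 15 lower and 9 higher at 24 h, both against 0 h. At 24 h against 6 h 11 were called higher and 4 lower, and from 6 h to 12 h 2 higher and 0 lower by edgeR. Without 24 h replicate 1, which ATF3 and NUPR1 needed, 3 of the 5 members of this list would have been chosen. From 6 h to 12 h, edgeR had 4 of the 31 list genes higher and 4 lower at an unadjusted p under 0.05. After adjustment limma-voom and DESeq2 each called 2 of the 31 higher and 1 lower.

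**Figure D2:**
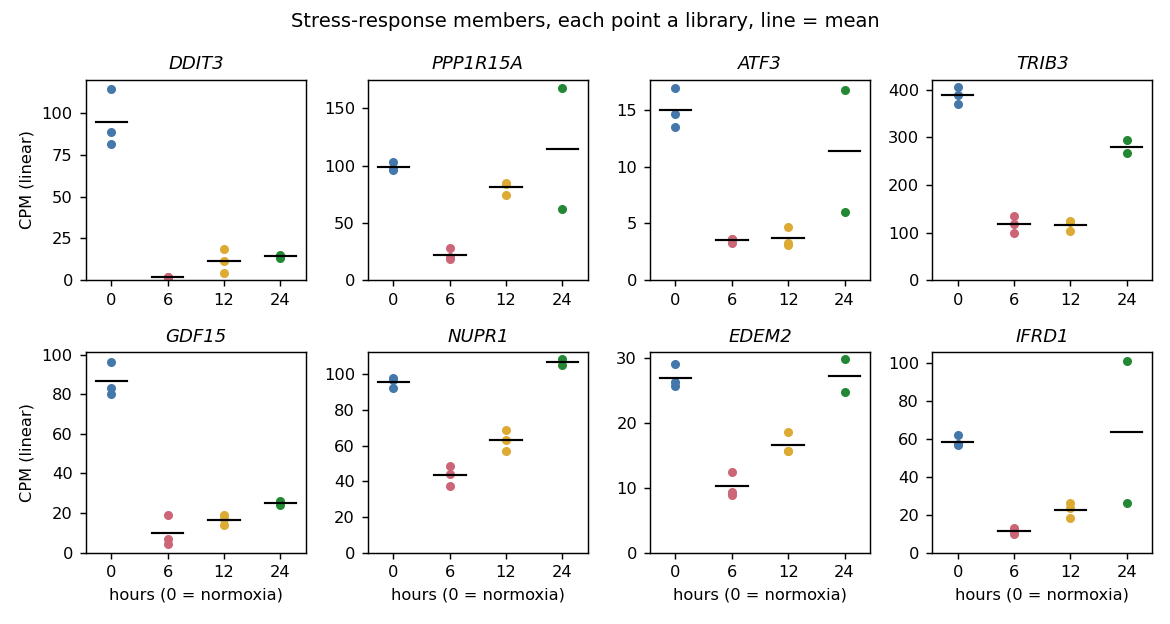
CPM on a linear axis against hours for 8 stress-response genes, with 0 for normoxia, a point for each library and a line for each mean. All libraries at 6 h lie below all at 0 h. DDIT3 and GDF15 stay below the start at 24 h (15.2 and 13.5, 24.0 and 26.3 CPM), ATF3 and TRIB3 are still at the 6 h level at 12 h, and the 24 h points of PPP1R15A, ATF3 and IFRD1 lie far apart.

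The promoters of DDIT3, PPP1R15A, IFRD1 and ATF3, and of the mitotic members NDC80 and HMMR, are printed as examples, picked after their matches were seen, in which short elements bound by ATF and CREB proteins, by NF-Y and by cell-cycle repressors can be read. The windows are RefSeq sequence on GRCh38.p14, from 250 bases before to 50 after the start that RefSeq gives, 5′ to 3′ on the strand of the gene. Capitals mark a match on either strand to the cAMP response element (CRE, TGACGTCA), the C/EBP-ATF response element (CARE, TGATGNAAN), the CCAAT box (CCAAT) or the cell cycle homology element (CHR, TTTGAA). In HMMR 2 CCAAT matches overlap each other and 2 CHR matches lie end to end.
DDIT3, chr12:57520465-57520764, minus strand: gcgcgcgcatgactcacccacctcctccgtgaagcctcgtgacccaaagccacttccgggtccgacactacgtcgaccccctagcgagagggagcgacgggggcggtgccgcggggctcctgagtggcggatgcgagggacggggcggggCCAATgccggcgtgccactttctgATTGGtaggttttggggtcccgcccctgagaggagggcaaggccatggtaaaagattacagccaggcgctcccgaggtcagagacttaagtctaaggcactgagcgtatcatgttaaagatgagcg
PPP1R15A, chr19:48872171-48872470, plus strand: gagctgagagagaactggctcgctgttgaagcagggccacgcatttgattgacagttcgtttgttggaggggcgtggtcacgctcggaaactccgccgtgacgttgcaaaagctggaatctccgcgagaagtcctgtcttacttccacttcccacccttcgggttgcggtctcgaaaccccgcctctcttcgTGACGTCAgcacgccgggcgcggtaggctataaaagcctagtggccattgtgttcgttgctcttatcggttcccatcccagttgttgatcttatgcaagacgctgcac
IFRD1, chr7:112450258-112450557, plus strand: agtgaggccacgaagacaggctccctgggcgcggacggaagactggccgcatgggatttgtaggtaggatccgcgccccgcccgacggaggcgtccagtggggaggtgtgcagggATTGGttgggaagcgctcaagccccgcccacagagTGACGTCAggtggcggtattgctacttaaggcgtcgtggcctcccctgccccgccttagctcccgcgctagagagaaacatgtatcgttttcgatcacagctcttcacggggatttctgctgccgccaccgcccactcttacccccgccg
ATF3, chr1:212565157-212565456, plus strand: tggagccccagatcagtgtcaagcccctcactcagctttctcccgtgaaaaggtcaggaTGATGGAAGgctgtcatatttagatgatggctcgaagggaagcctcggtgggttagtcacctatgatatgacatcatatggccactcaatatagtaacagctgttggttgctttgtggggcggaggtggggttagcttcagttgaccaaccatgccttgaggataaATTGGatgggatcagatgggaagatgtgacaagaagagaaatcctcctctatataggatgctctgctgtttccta
NDC80, chr18:2571307-2571606, plus strand: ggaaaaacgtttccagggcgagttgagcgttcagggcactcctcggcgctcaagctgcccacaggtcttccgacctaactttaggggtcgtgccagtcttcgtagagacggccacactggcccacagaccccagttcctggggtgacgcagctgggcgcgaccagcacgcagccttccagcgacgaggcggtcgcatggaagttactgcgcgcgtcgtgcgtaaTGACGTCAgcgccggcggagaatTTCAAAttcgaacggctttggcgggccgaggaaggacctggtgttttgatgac
HMMR, chr5:163460382-163460681, plus strand: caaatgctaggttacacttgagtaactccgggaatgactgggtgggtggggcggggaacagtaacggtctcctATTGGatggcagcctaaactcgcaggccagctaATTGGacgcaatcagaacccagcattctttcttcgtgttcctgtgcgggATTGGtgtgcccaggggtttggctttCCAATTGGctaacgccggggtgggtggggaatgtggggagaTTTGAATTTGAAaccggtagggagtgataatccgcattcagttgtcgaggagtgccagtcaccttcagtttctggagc

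PPP1R15A, IFRD1 and NDC80 each hold the 8 letters of the CRE, 58, 100 and 26 bases before the start. ATF3 holds a CARE match 191 bases before it, and DDIT3 2 CCAAT matches. Of the 150 genes 126 matched a promoter window by symbol. The CRE was in 8 of these (6.35%), against 3.42% of 9494 windows of available genes and 1.98% of all 27305 windows. The other 5 were H3C14, H3C15, DUS2, SPATA7 and ZNF438, a count read after the values were seen. H3C14 and H3C15 had identical counts, so the 8 windows stand for fewer signals. The CARE was in 2 windows (1.59%), against 1.63% of available genes. The core of the hypoxia response element that HIF proteins bind (ACGTG) was in 34 windows (27.0%) against 27.2%, the CCAAT box in 46 (36.5%) against 37.2%, and the CHR in 13 (10.3%) against 9.47%. Apart from the CRE, the shares of these elements lay close to those of the available genes. Among further elements scanned, that of YY1 was in 7.14% of windows against 10.7%, and that of NRF1 in 3.17% against 2.32%. The rest are not given. Such matches are letters only, and no binding was measured.

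Of the zinc finger genes, ZNF133 had the deepest dip. ZNF133, a KRAB zinc finger protein, measured 15.9, 15.5 and 14.2 CPM at 0 h, 4.10, 2.92 and 3.24 at 6 h, 7.17, 10.8 and 11.3 at 12 h, and 19.2 and 25 at 24 h. Its 24 h libraries lay above all those at 0 h. The rise from 6 h to 12 h was 1.51 (SE 0.21, edgeR quasi-likelihood test, Benjamini-Hochberg adjusted p = 0.00444), and it was called under each of 18 alternatives. ZNF280D, ZNF85 and ZNF414 were also among the first 20. Of 460 available genes with a zinc finger symbol (ZNF, ZSCAN, ZKSCAN or ZBTB), 8 were among the 150 (1.74%, against 1.3% of all available genes), the others being ZSCAN26, ZNF311, ZNF438 and ZNF16. ZNF311 ended at 1.37 and 2.89 CPM at 24 h, from 8.18, 7.70 and 7.96 at 0 h, and ZNF16 at 19.9 and 11.4 from 15, 13.9 and 14.8. The group thus held genes that ended below, around and above their starting level. Without 6 h replicate 3, ZNF311, ZNF438 and ZNF16 would not have been chosen, which leaves 5 of the 8.

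YEATS4, a reader of acetylated histones in chromatin remodelling complexes, measured 18.1, 17.2 and 16.6 CPM at 0 h, 4.89, 3.50 and 4.78 at 6 h, 8.08, 9.69 and 9.16 at 12 h, and 15.1 and 25.6 at 24 h. NEK3, a kinase of the NIMA family, measured 7.95, 8.34 and 7.14 CPM at 0 h, 2.05, 2.30 and 2.14 at 6 h, 4.60, 4.18 and 4.50 at 12 h, and 8.21 and 7.85 at 24 h. NEK3 returned closely in both 24 h libraries, with a difference from 0 h of 0.04 (SE 0.17). STPG1 differed by only -0.09 from its 0 h level at 12 h on the log2 scale, with little spread, at 12.3, 11.8 and 12.2 CPM at 0 h, 3.45, 3.28 and 3.62 at 6 h, 11.3, 12.4 and 10.6 at 12 h, and 12.8 and 10.5 at 24 h. It rose by 1.72 from 6 h to 12 h (SE 0.15, edgeR quasi-likelihood test, Benjamini-Hochberg adjusted p = 0.000346).

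SLC66A1, which exports cationic amino acids from lysosomes, measured 12.1, 15.2 and 14.8 CPM at 0 h, 3.11, 3.15 and 4.43 at 6 h, 6.73, 12.2 and 12.1 at 12 h, and 10.9 and 14.4 at 24 h. PUS10, a pseudouridine synthase, ended at 3.59 and 5.07 CPM from 6.63, 7.70 and 7.31. EDAR, the receptor for ectodysplasin, ended at 2.05 and 1.03 CPM from 4.25, 7.17 and 5.05, after 0.342, 0.422 and 0.341 at 6 h. The remaining genes of the first 20 were ECHDC3, CORO6, GASK1A, BLNK, an adaptor of B-cell receptor signalling, the DNA damage protein ETAA1, the cytokine IL15 and FBXO32. Of these ECHDC3 had uneven 24 h libraries, with 1.16 and 3.65 CPM against 2.86 to 3.12 at 0 h. Its mean count was 53.6, near the minimum of 50. With any single 0 h library left out it fell below that minimum, and so would not have been chosen whatever its dip.

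Some genes passed their starting level early. FBXO32, the muscle atrophy ubiquitin ligase atrogin-1, measured 27.4, 34.5 and 30.4 CPM at 0 h, 8.88, 9.47 and 6.27 at 6 h, 30.2, 70.4 and 74.7 at 12 h, and 133 and 47.0 at 24 h. KCNQ5, a voltage-gated potassium channel, measured 6.45, 5.41 and 6.71 CPM at 0 h, 2.05, 2.66 and 1.91 at 6 h, 19.6, 18.7 and 14 at 12 h, and 7.57 and 10.7 at 24 h. KCNQ5 peaked at 12 h, while the highest FBXO32 library was at 24 h. PTGS2, the inducible cyclooxygenase COX-2, measured 2.59, 3.73 and 3.01 CPM at 0 h, 1.64, 1.00 and 1.46 at 6 h, 12.9, 6.93 and 4.59 at 12 h, and 83.9 and 12.6 at 24 h. From 6 h to 12 h KCNQ5 rose by 2.99 (SE 0.22) and FBXO32 by 2.84 (SE 0.39), and the edgeR quasi-likelihood test gave Benjamini-Hochberg adjusted p = 0.000112 and 0.00469. PTGS2 was the largest overshoot at 24 h, 3.96 above 0 h (SE 0.60), and its call at 12 h against 6 h was lost in 11 of 18 alternatives, among them leaving out any single library at 0 h, 6 h or 12 h.

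SEMA6D, a membrane-bound semaphorin, measured 13.5, 17.9 and 16.4 CPM at 0 h, 2.36, 1.36 and 2.25 at 6 h, 7.58, 14.4 and 17.3 at 12 h, and 9.16 and 4.30 at 24 h. The second 24 h library was below every 12 h library, and the first lay within their range. At the other end, the small differences between 12 h and 6 h, beside TRIB3 and ATF3, included those of NUF2 (0.15) and RILP (0.22), an effector of RAB7 on lysosomes.

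In mitosis 4 of 36 available genes were members (11.1%). NDC80 and NUF2 are partners in the complex that ties kinetochores to microtubules, KIF2C removes tubulin from microtubule ends, and HMMR acts at the spindle. NDC80 measured 18.6, 12.0 and 14.3 CPM at 0 h, 5.02, 4.83 and 1.91 at 6 h, 4.46, 7.82 and 6.81 at 12 h, and 10.9 and 10.5 at 24 h. HMMR measured 38.7, 25.6 and 32.6 CPM at 0 h, 4.58, 3.57 and 3.01 at 6 h, 5.01, 5.57 and 5.89 at 12 h, and 9.71 and 8.01 at 24 h. Both 24 h libraries were alike for these genes, and HMMR remained 1.86 below its start (SE 0.23). None of the 4 passed the test between 12 h and 6 h, where NUF2 differed by 0.15 (SE 0.22) and KIF2C by 0.30 (SE 0.32). In all 4 the lowest 6 h library was replicate 3, at 1.91 CPM for NDC80 and 6.67 for KIF2C, and without it neither NDC80, HMMR, KIF2C nor NUF2 would have been chosen. Without 24 h replicate 1 NDC80 alone of the 4 would have been. Over the 36 tested genes of the list 13 were called lower and 1 higher at 6 h against 0 h (27.7% and 25.1% of all tested genes), 9 higher and 1 lower at 24 h against 6 h (22.1% and 20.3%), and 0 in either direction from 6 h to 12 h by edgeR, limma-voom or DESeq2, where edgeR had 2 higher and 0 lower at an unadjusted p under 0.05.

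In DNA replication 3 of 44 available genes were members (6.82%), and without 24 h replicate 2 only PRIM1 of the 3 would have been chosen. POLA2 and PRIM1 are subunits of the polymerase that lays down primers, and CDT1 licenses origins. PRIM1 measured 18.7, 15.6 and 17.8 CPM at 0 h, 4.10, 4.12 and 4.36 at 6 h, 6.19, 5.75 and 6.83 at 12 h, and 9.84 and 9.92 at 24 h. CDT1 measured 88.2, 76.7 and 92.0 CPM at 0 h, 25.2, 38.6 and 35.0 at 6 h, 51.6, 66.0 and 58.4 at 12 h, and 64.1 and 83.4 at 24 h. PRIM1 was stepwise and tight but ended 0.81 below its start (SE 0.16), while the second 24 h library of CDT1 lay within the range at 0 h. Over the 44 tested genes of the list, 17 were called lower and 8 higher at 6 h against 0 h (27.7% and 25.1% of all tested genes). At 24 h against 6 h, 21 were called higher and 2 lower (22.1% and 20.3%).

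In DNA repair 5 of 66 available genes were members (7.58%), and 3 of the 5 would have been chosen without 6 h replicate 1 (POLI and DDB2 lost) or without 24 h replicate 2 (POLL and POLI lost). ETAA1, an activator of the checkpoint kinase ATR, measured 17.9, 17.8 and 16.5 CPM at 0 h, 4.54, 2.98 and 2.33 at 6 h, 7.75, 9.99 and 7.86 at 12 h, and 10.9 and 13.7 at 24 h. FANCE, a subunit of the Fanconi anaemia core complex, measured 50.4, 50.1 and 52.9 CPM at 0 h, 18.4, 18.4 and 22.3 at 6 h, 37.5, 47.2 and 47.7 at 12 h, and 87.7 and 84.8 at 24 h. FANCE overshot its start in both 24 h libraries whereas ETAA1 stayed below it. From 6 h to 12 h FANCE rose by 1.16 (SE 0.14, edgeR quasi-likelihood test, Benjamini-Hochberg adjusted p = 0.003), and ETAA1 by 1.39 (SE 0.23, adjusted p = 0.00827), a call lost without 6 h replicate 2. The others were the gap-filling polymerase POLL, the translesion polymerase POLI and DDB2, which recognises ultraviolet lesions. DDB2 returned in full, from 66.9, 65.6 and 64.3 CPM at 0 h and 27, 29.5 and 34.7 at 6 h to 63.7 and 67.4 at 24 h. POLI ended at 2.70 and 3.76 CPM from 6.98, 8.45 and 7.93. DDB2 and GADD45A, the stress sensor that slows the cell cycle, were also the 2 members of 27 available p53 targets (7.41%), but neither would have been chosen without 24 h replicate 1, nor DDB2 without 6 h replicate 1. Over the 27 tested p53 targets, 10 were called lower and 7 higher at 6 h against 0 h (27.7% and 25.1% of all tested genes). At 24 h against 6 h, 6 were called higher and 8 lower (22.1% and 20.3%).

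Genes of the primary cilium, the sensory antenna built on a centriole, gave 4 members of 46 available (8.7%). Of these only BBS4 would have been chosen without 6 h replicate 2, and only IFT74 without 24 h replicate 1. IFT74 and IFT88 carry cargo along the cilium, DYNC2LI1 belongs to the motor that brings it back, and BBS4 to the coat that loads membrane proteins. BBS4 measured 7.53, 7.20 and 6.95 CPM at 0 h, 2.53, 2.69 and 2.44 at 6 h, 3.45, 3.59 and 3.63 at 12 h, and 6.16 and 5.07 at 24 h. IFT88 measured 4.92, 5.28 and 4.59 CPM at 0 h, 1.13, 0.422 and 1.80 at 6 h, 1.96, 1.25 and 1.60 at 12 h, and 2.65 and 1.80 at 24 h. BBS4 was low and even at 6 h and 12 h, while for IFT88 the groups after 0 h overlapped. None of the 4 passed the test between 12 h and 6 h, with differences of 0.45 to 0.48 for all of them. Of 42 available centrosome genes CETN3 and CEP57L1 were members, CETN3 only with 24 h replicate 2. Over the 42 tested, 19 were called lower and 8 higher at 6 h against 0 h (27.7% and 25.1% of all tested genes). At 24 h against 6 h, 10 were called higher and 7 lower (22.1% and 20.3%).

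The histone genes differed between the libraries of a time point. H4C14 measured 42.8, 40.2 and 41.0 CPM at 0 h, 19.5, 12.9 and 10.8 at 6 h, 9.91, 32.1 and 38.2 at 12 h, and 19.2 and 150 at 24 h. H2BC21 measured 29.9, 31.7 and 27.5 CPM at 0 h, 15, 9.47 and 12.0 at 6 h, 10.8, 29.3 and 39.6 at 12 h, and 24.6 and 43.8 at 24 h. In both genes 12 h replicate 1 was within or below the 6 h range. The other 12 h libraries were nearer the 0 h range, below it for H4C14, and within it (29.3) and above it (39.6) for H2BC21. Of the 24 h pair only the second library was above 0 h. Neither passed the test from 6 h to 12 h, and neither would have been chosen without 24 h replicate 2. H3C14 and H3C15, at 1.07 and 8.28 CPM in the 24 h pair against 7.16 to 8.56 at 0 h, would not have been either.

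Of the interferon list 2 of 35 available genes were members (5.71%), and without 24 h replicate 1 only IL15 would have been. Over its 38 tested genes, 19 were called lower and 1 higher at 6 h against 0 h (27.7% and 25.1% of all tested genes). At 24 h against 6 h, 10 were called higher and 4 lower (22.1% and 20.3%). TNFSF10, the death ligand TRAIL, measured 69.2, 84.6 and 65.1 CPM at 0 h, 21.6, 16.4 and 16.7 at 6 h, 40.6, 48.7 and 34.9 at 12 h, and 53 and 40.0 at 24 h. IL15, a cytokine that sustains natural killer and memory T cells, measured 5.89, 6.80 and 6.44 CPM at 0 h, 1.81, 1.65 and 2.22 at 6 h, 4.50, 3.82 and 3.91 at 12 h, and 8.34 and 7.36 at 24 h. IL15 passed its start in both 24 h libraries and TNFSF10 did not reach it. TNFSF10 rose by 1.19 from 6 h to 12 h (SE 0.18, edgeR quasi-likelihood test, Benjamini-Hochberg adjusted p = 0.00616). The calls of TNFSF10, FANCE, STPG1, KCNQ5, FBXO32 and SEMA6D between 12 h and 6 h held under each of 18 alternatives. CIRBP, the cold-inducible RNA-binding protein, was 1 of 30 available in its list, though not without 6 h replicate 1 or 24 h replicate 2, at 133, 132 and 132 CPM at 0 h, 27.1, 34.5 and 40.2 at 6 h, 57.2, 42.0 and 47.5 at 12 h, and 56.1 and 97.9 at 24 h.

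Many lists gave 0 members, among them HIF targets (27 available), glycolysis (18), heat shock (21), cholesterol synthesis (25), nuclear genes of oxidative phosphorylation (55) and cytosolic ribosomal proteins (78). Of the 28 tested HIF targets 27 were called higher at 12 h than at 0 h, where 24.2% of all tested genes were, with a median difference of 2.35. Other lists with 0 members were those of NF-kB and inflammatory cytokines (12), the BCL2 family (19), the circadian clock (18), keratinocyte differentiation (31), NRF2 targets (21), MondoA targets (7), lysosome and autophagy (36) and mitochondrial branched-chain and fatty acid oxidation (37). Only 1.3% of all available genes were members, so nothing is read from a count of 0 in lists of these sizes. In all, 39 of the 150 genes were in any list, the zinc finger genes included, so most of the set belongs to none of the groups looked at.

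**Figure D3:**
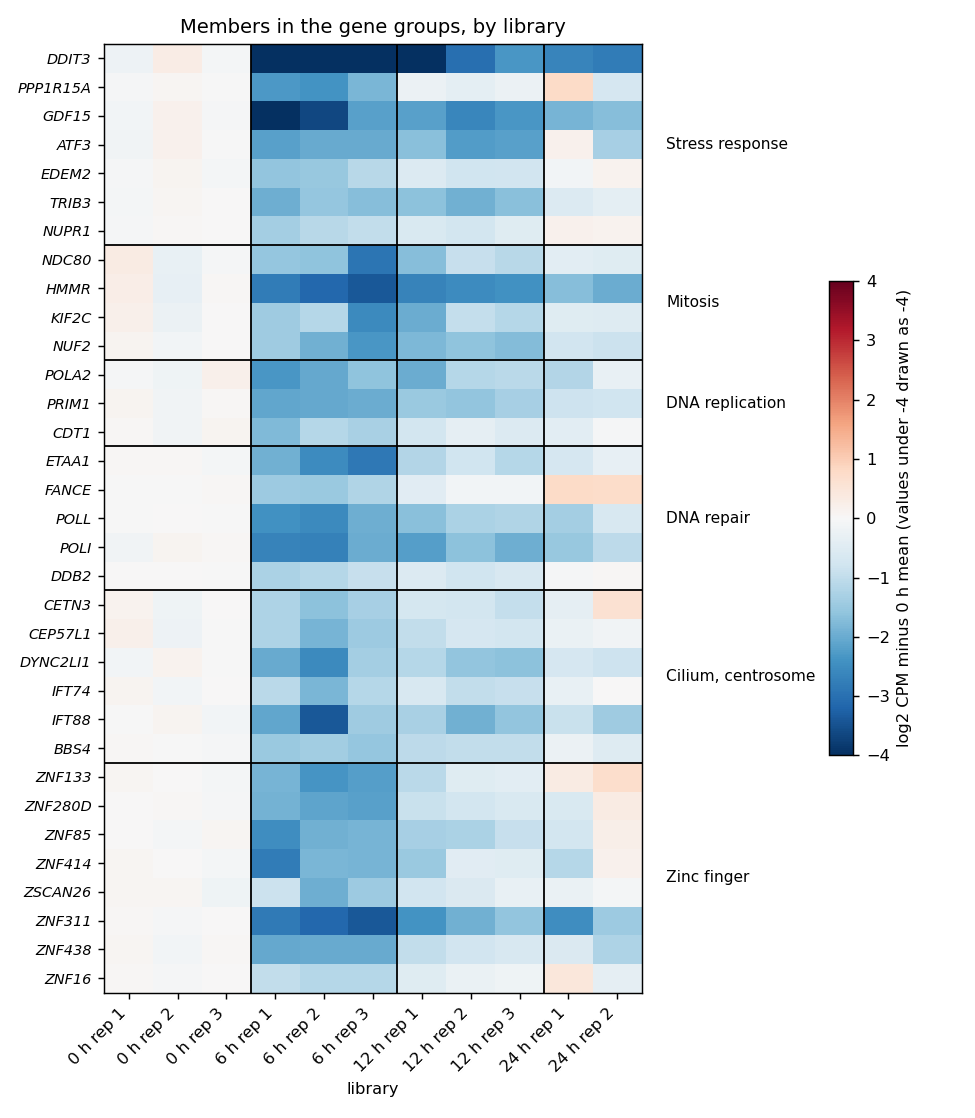
Log2 CPM minus the 0 h mean for members in the gene groups (rows) over the 11 libraries (columns), with blue below and red above the 0 h mean and values under -4 drawn as -4. The 6 h columns are blue in every row. DDIT3, GDF15, HMMR and ZNF311 are still blue at 24 h (differences of -2.73, -1.78, -1.86 and -1.92), and FANCE and ZNF133 are red there.

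At 24 h the genes as a set lay around their starting level, with a median difference from 0 h of -0.18 (interquartile range -0.67 to 0.14), against -0.06 over all tested genes. The 24 h mean was above the 0 h mean in 48 genes and below it in 102, and within 0.5 on the log2 scale in 88. In edgeR's fit 35 genes (23.3%) were called lower than at 0 h, where 31.3% of all tested genes were, and 9 (6%) higher, where 29.9% were. Both 24 h libraries lay below all 3 at 0 h in 58 genes (38.7%), as 39.4% of all tested genes did. Both groups entered the choice, so these counts are descriptive. Without 24 h replicate 2, 54 genes were called lower, and without 24 h replicate 1, 25 were called higher. With library size in place of TMM the count called lower was 124. That scaling moved the median difference between 24 h and 0 h of all tested genes from -0.12 to -1.03 and that of the 150 genes from -0.22 to -1.16, as means of log2 CPM, so relative to the bulk of genes the set stayed close. Between 24 h and 6 h it gave 0.69 for the set against -0.61 for all tested genes. All 150 genes kept a positive dip under it.

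The lowest members at 24 h against 0 h were DDIT3 (-2.73), RBBP8NL (-2.28), ZNF311 (-1.92), HMMR (-1.86) and EDAR (-1.81). The highest were PTGS2 (3.96), FBXO32 (1.55), C16orf74 (1.52), H4C15 (1.04) and H4C14 (1.03). The highest ones were uneven between the libraries. C16orf74 measured 6.67 and 27.2 CPM at 24 h against 5.41 to 6.33 at 0 h, and the 2 H4 genes are a single signal.

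The 24 h pair differed by more than 1 on the log2 scale in 44 of the 150 genes (29.3%), against 19.2% of available genes. Replicate 2 was the higher in 101 genes and replicate 1 in 49, and the median of replicate 1 minus replicate 2 was -0.39, against -0.04 over available genes. Both 24 h libraries lay above all 3 at 6 h in 141 genes, as 25.6% of all tested genes did. IFT88 and LNX1 failed this in replicate 2 only, and 7 genes failed it in replicate 1 only: H4C14, H4C15, OXLD1, TRADD, SDHAF4, ORAI3 and DEPDC1, some of which are named here after their values were seen. This position is set by the choice of the genes, and nothing is read from the count. With the dip computed from 1 library at 24 h, its median was 1.13 with replicate 1 and 1.34 with replicate 2, and its lowest value 0.09 and 0.18.

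**Figure D4:**
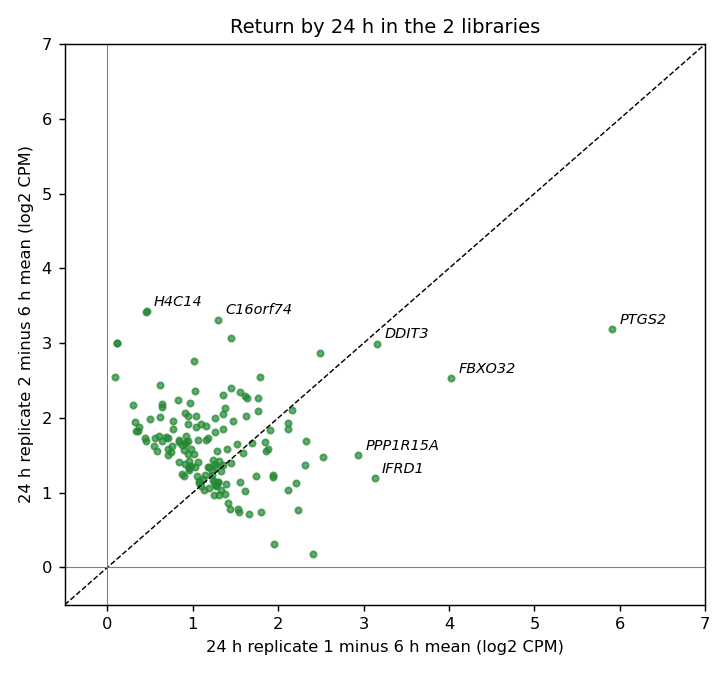
Log2 CPM in 24 h replicate 2 (vertical) against replicate 1 (horizontal), each minus the 6 h mean, with a point for each of the 150 genes and a dashed line of equality. Every point is above 0 on both axes. Replicate 2 is the higher in 101 genes, H4C14 and C16orf74 lie far above the line, and PTGS2, FBXO32, PPP1R15A and IFRD1 lie below it.

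The choice used the library that is described, so it was repeated with each library left out and that library was then looked at alone. Of 150 genes chosen without it, 142, 144 and 139 had their level in 6 h replicates 1, 2 and 3 below every library at 0 h and 24 h, against 18.8%, 19.4% and 16.7% of available genes. Chosen without a 24 h library, 120 genes lay above all 6 h libraries in replicate 1 and 114 in replicate 2, against 38.9% and 41.4%. For the 12 h libraries, which the choice does not use beyond the mean count and the scaling, the counts were 125, 133 and 141, against 33.5%, 32.1% and 33.5%. Each left-out library was compared with libraries that had chosen the genes, so chance values in those enter these counts. The shares of available genes do not correct for this, and the counts are descriptive. Of the 150 genes 41 were chosen whichever of the 11 libraries was left out, among them 17 of the first 20.

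The 150 genes were shorter and less abundant than those they were chosen from. Their median exonic length was 3756.5 bases against 5550, their median span on the genome 22927 bases against 33738, and their median number of exons 8 against 10. The median of their mean count was 250.6 against 811, and their GC content was alike, 48.6% against 47.7%. With the available genes split into 4 classes of about equal size by length, the class of the shortest held 67 of the 150, and the further classes, by rising length, held 45, 21 and 17. Length moved with the libraries at 24 h as well. In the class of the shortest genes the median of all available genes was 0.29 above the 6 h mean in 24 h replicate 1 and 0.78 in replicate 2, and in that of the longest it was -0.22 and -0.64. The 6 h libraries showed less of this, with 0.17 in the shortest and -0.001 in the longest class relative to 0 h. With a trend of GC content and length removed from each library, 95 of the 150 genes were chosen again. These included 20 of the first 20. All 150 kept a positive dip, but each had been chosen with a dip of at least 1.056, so nothing is read from this. The part of length in the return was not tested.

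By position, 23 of the 150 genes were on chromosome 1 (15.3%, against 10.6% of available genes), 5 of them histone genes of a single cluster, and 12 on chromosome 10 (8%, against 3.98%). An annotated gene on the opposite strand covered more than 10% of the exonic length in 12 genes (8%, against 13.9% of available genes). A gene on the same strand did so in 14 (9.33%, against 6.42%), among them IFRD1, ZNF280D, MND1, POLA2, PRIM1 and NUPR1, whose counts are uncertain to that extent.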

How the data were processed

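RNA-seq was measured in 11 libraries of RWPE1 cells. The authors trimmed reads with Trimmomatic, mapped them to hg38 with STAR and summarised them by Ensembl gene with featureCounts, and the deposited values are raw counts. The strand and multi-mapping settings are not given in the sources used here. A total of 0 columns were left over. Annotation came from GENCODE release 44 (60357 of 60676 genes found). filterByExpr (minimum count 10) kept 19981 genes, including all 150 members. Libraries were scaled with TMM, and log2 CPM used a prior count of 2. edgeR's quasi-likelihood test was fitted to the 11 libraries together, with time point as a factor, and p-values were adjusted by Benjamini-Hochberg across the table and called at 0.05. An exact test of 3 against 3 libraries was not used, since it cannot reach that threshold. The SE is the log2 difference over the square root of F. Alternatives exchanged the test (limma-voom, DESeq2), the scaling, the filter, the prior count, the minimum mean count and the libraries fitted, added a replicate block, and left out each library in turn. TMM over all genes, removal of a GC and length trend, and the look at each left-out library were chosen later, after seeing the data. Each test script was tried on simulated counts. The members, gene lists and tests were chosen with earlier results of these data known. Named were the 20 deepest dips, members in lists, the genes next to the threshold and the 5 extremes at 12 h against 6 h and at 24 h against 0 h, of which 1 is not reported here. The software was edgeR 4.0.16, DESeq2 1.42.0 and limma 3.58.1 in R 4.3.3, and Python 3.11.15.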

Additional observations from a re-analysis of the deposited data

Results flagged for a closer look

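The change from 0 h differed between 6 h and 12 h in 60 of the 150 genes by the test of the 12 h against the 6 h libraries (edgeR quasi-likelihood test, Benjamini-Hochberg adjusted across 19981 genes). All 60 were less far below, or further above, their 0 h level at 12 h. The 6 h libraries took part in choosing the genes. The count ranged from 13 to 108 when single libraries were left out.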

How the results depend on the processing

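With 3 libraries a group and 2 at 24 h, the count of calls depended on single libraries. The 60 genes called higher at 12 h than at 6 h became 31 with library size alone, and 13 to 108 with a library left out. The 35 called lower at 24 h than at 0 h became 124 with library size alone, and 26 to 54 with a library left out. The 103 called lower at 12 h than at 0 h were 85 to 132 under all alternatives. Of the 150 genes, 77 were chosen again with library size alone, 85 with a minimum mean count of 200, 95 with a trend of GC content and length removed (added after the data were seen), and 87 to 150 with a library left out.

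Pairing by replicate number was not seen in the deviations of libraries from their time point means. Between time points, correlations ran from -0.156 to 0.207 for the same number and from -0.271 to 0.283 for different numbers. Deviations within a time point are tied to each other, so these values cannot settle the design. With a replicate block the 3 counts were 48, 106 and 30. Between 12 h and 6 h the sign turned for ATF3 (-0.086 with library size alone, -0.135 to 0.17 with a library left out), TRIB3 (0.003 without a filter, -0.121 to 0.087 with a library left out, positive without 6 h or 12 h replicate 2), and, without 6 h replicate 3, for NUF2 (-0.06 to 0.427) and KIF2C (-0.023 to 0.586). None of these differences had passed the test. Among single genes, 776 values kept sign and side of the threshold under an alternative, 112 fell short of it, 41 passed it and 7 turned. The causes were not tested. Genes near the minimum of 50 counts have the least depth.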

Other observations

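Of the 67 tested genes of the DNA repair list, its 5 members included, 44 were called lower and 6 higher at 6 h against 0 h (27.7% and 25.1% of all tested genes), and 39 were called lower and 5 higher at 24 h (31.3% and 29.9%), with median differences of -0.86 and -0.76. At 24 h against 6 h 17 were called higher and 7 lower (22.1% and 20.3%). Of the 49 tested cilium genes 29 were called lower and 1 higher at 6 h, 20 lower and 9 higher at 24 h, and 14 higher and 5 lower at 24 h against 6 h. Of the 24 tested replication-dependent histones 14 were called higher and 1 lower at 24 h than at 6 h, where 22.1% and 20.3% of all tested genes were.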
